A study of Saccharomyces cerevisiae and Schizosaccharomyces pombe with 10 samples.

Results

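The U3 small nucleolar RNA (snoRNA) of budding yeast is made from a pair of genes, SNR17A and SNR17B, and both are interrupted by an intron. All alignments of the Saccharomyces cerevisiae nascent RNA file that shared at least 1 base with either gene on its own strand were taken. They numbered 579 of 101128, of which 433 lay on SNR17A and 146 on SNR17B. Nascent RNA is the RNA still held by transcribing polymerases. It was isolated from cells of strain BY4741 (MATa leu2D0 met15D0 ura3D0) in exponential growth at 30 °C in rich glucose medium, ligated to an adaptor at its 3' end and read as full cDNA molecules on a Pacific Biosciences instrument. The labels name 2 replicates of this sample. The deposited file holds both without telling them apart, so the values describe 1 pool of reads with no spread between replicates, and the other samples of the series (3 and 3 of splicing reporters, 1 of a single gene and 1 of Schizosaccharomyces pombe) were not analysed here.

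U3 is a box C/D snoRNA, but unlike most RNAs of its class it does not guide ribose methylation. It pairs through its 5' part with the ribosomal RNA precursor and is needed for the early cleavages that lead to the small-subunit rRNA, while its 3' part binds the box C/D proteins Nop1, Nop56, Nop58 and Snu13 and the U3-specific protein Rrp9. The genes are transcribed by RNA polymerase II, the precursor is spliced, and its 3' end is made by endonuclease cleavage downstream followed by trimming, during which the yeast La protein Lhp1 binds the extended precursor.

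SNR17A lies on the plus strand of chromosome XV, from 780107 to 780596 (build sacCer3, counted from 1), and SNR17B on the minus strand of chromosome XVI, from 281056 to 281517. In SNR17A an exon 1 of 14 nt is followed by an intron of 157 nt (780121 to 780277) and an exon 2 of 319 nt. In SNR17B exon 1 is also 14 nt long, the intron is 130 nt (281374 to 281503) and exon 2 is 318 nt. The spliced RNAs are thus 333 nt and 332 nt long, and positions in them are counted from the annotated gene start, with exon 2 beginning at nt 15.

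The file held 101128 alignments of 100834 reads from 5 sequencing movies, 4 earlier ones and 1 later one that had longer alignments (median 185 nt against 101 nt). Alignments as long as the spliced SNR17A RNA numbered 2405, and those as long as the unspliced RNA of 490 nt numbered 922, so fewer reads were long enough to show a whole unspliced molecule. PCR copies were not removed, and all intervals (95%, Wilson for shares unless stated) cover counting error only. Distinct alignments numbered 110 for SNR17A (25.4%) and 74 for SNR17B (50.7%). No read aligned to both copies. The 5 reads of SNR17A with a second alignment had it elsewhere in the genome. The copies are close relatives in sequence, so a read can be placed on 1 of them only where they differ, and the split of reads between them is uncertain to that extent.

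SNR17A gave more reads than SNR17B. It had 433 reads (exact Poisson interval 393 to 476) and SNR17B had 146 (123 to 172), or 0.428% and 0.144% of all alignments. SNR17A held 74.8% of the reads of both copies (exact binomial interval 71.0 to 78.3). In the earlier movies SNR17A had 3035, 2759, 3354 and 3472 reads per 1000000 alignments of the movie, and SNR17B had 1457, 797, 976 and 599. In the later movie the levels were 6384 and 2355 reads per 1000000. SNR17A was therefore above SNR17B in each of the 5 movies, with 67.6% to 85.3% of the reads, and both were at their highest in the later movie. With identical alignments counted once the SNR17A part fell to 59.8%. Neither gene was among the most read snoRNAs: SNR17A ranked 49 and SNR17B 64 of 76 annotated snoRNA genes, and the 73 other snoRNAs with at least 50 reads had a median of 721. Whether reads that match both copies are missing from these counts was not tested. No read lay antisense to either gene, where a count of 0 allows up to 3 reads.

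Coverage was high over exon 2, lower over exon 1 and close to 0 over the intron. In SNR17A the mean depth was 122 reads per nt over exon 1, 5.57 over the intron and 409 over exon 2. In SNR17B it was 34.0, 1.00 and 135 reads per nt. The intron thus stood at 4.57% of the exon 1 depth in SNR17A and at 2.94% in SNR17B, and exon 1 at 29.7% and 25.3% of the exon 2 depth. Depth rose in steps over the beginning of exon 2, from 167 to 254 reads over its first 10 nt in SNR17A and from 44 to 62 in SNR17B. Past the gene end it dropped to a mean of 10.7 and 6.40 reads per nt over the first 10 nt and to 2.90 and 1.90 over the next 10 nt.

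**Figure D1:**
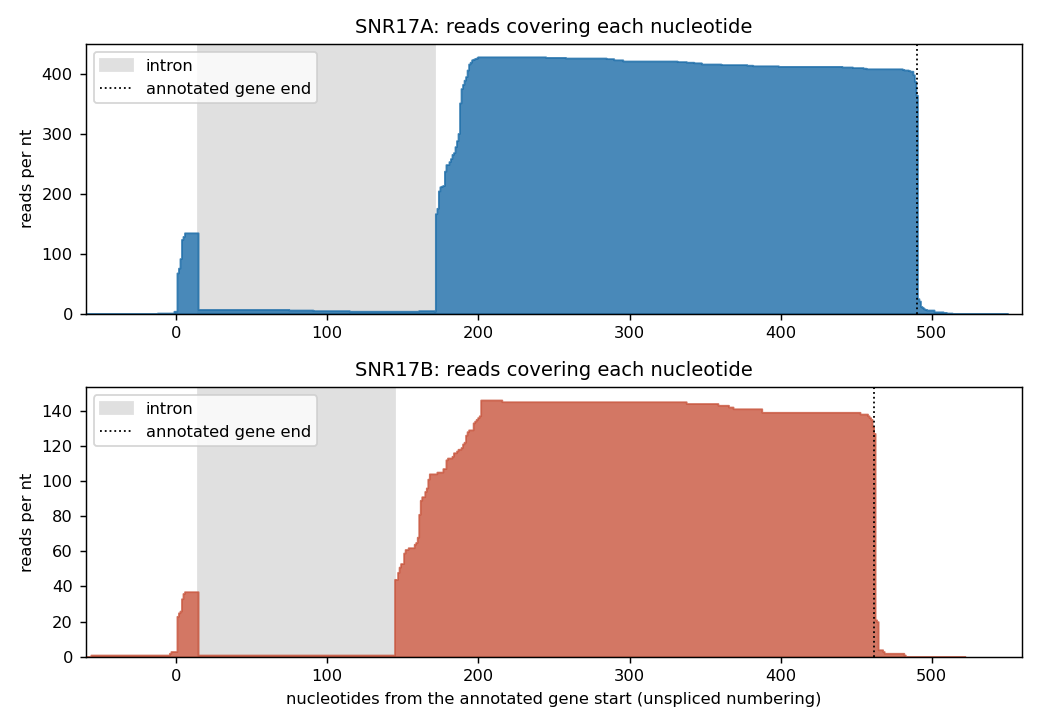
Reads covering each nucleotide of SNR17A (top) and SNR17B (bottom), in reads per nt against the distance in nt from the annotated gene start. The shaded intron is nearly empty (mean 5.57 and 1.00 reads per nt) between a short exon 1 (122 and 34.0) and a deep exon 2 (409 and 135).

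Most reads did not reach exon 1. A read was called informative for the intron if it began in exon 1 or upstream and ended in exon 2 or downstream. This held for 132 of 433 SNR17A reads (30.5%, 26.3 to 35.0) and 37 of 146 SNR17B reads (25.3%, 19.0 to 33.0). The difference of 5.14 points (interval -3.54 to 12.9) did not pass the threshold (two-sided Fisher's exact test, p = 0.249, adjusted p = 0.435). Here and below p-values were adjusted over 7 such tests, which compare the reads of this pool. The 146 SNR17B reads include 41 that began past nt 43 of the spliced RNA, where no SNR17A read began. The shares were not compared without them. Reads lying in exon 2 alone made up 68.4% of SNR17A (296 reads) and 74.7% of SNR17B (109 reads). Their splicing state cannot be read.

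Informative molecules of both copies were nearly all spliced. The intron was absent from 129 of 132 reads of SNR17A (97.7%, 93.5 to 99.2) and from 36 of 37 reads of SNR17B (97.3%, 86.2 to 99.5). The difference was 0.43 points with an interval of -4.32 to 11.7 (Fisher's exact test, adjusted p = 1), so a difference of several points between the copies was not detectable at this depth. In the earlier movies the counts were 67 of 68 and 12 of 12, and in the later movie 62 of 64 and 24 of 25. All 165 spliced reads had their gap at the same pair of bases in each copy, which set the intron ends used here, and no read held any other gap.

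Few molecules kept intron sequence. In SNR17A 3 unspliced reads crossed the whole intron: they ended 73 nt past the 3' splice site, 36 nt short of the commonest 3' end, and 23 nt beyond it. A further 3 reads ended inside the intron, after 60, 76 and 100 of its nucleotides. In SNR17B 1 unspliced read ended 71 nt past the 3' splice site. All of these 6 and 1 reads began exactly at the annotated gene start, whereas 58 of 129 spliced SNR17A reads (45.0%, 36.6 to 53.6) and 19 of 36 spliced SNR17B reads (52.8%, 37.0 to 68.0) did. The interval of the 6 of 6 SNR17A reads (60.97 to 100) lies above that of the spliced SNR17A reads. The intervals overlap in the earlier movies (4 of 4 reads, 51.0 to 100, against 36.3 to 59.5). They also overlap in the later one (2 of 2 reads, 34.2 to 100, against 30.5 to 54.3). With identical alignments counted once they stand apart (60.97 to 100 against 29.5 to 60.4). This comparison was chosen after seeing the data and was given no test. Of these 7 reads, 4 came from the earlier movies.

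Another pair of SNR17A reads touched the intron without exon 1. One read of 156 nt began at the first nucleotide of the intron and ended 1 nt before its last, so it held the intron and no exon sequence. The other began 11 nt before the end of the intron, at nt 161 from the gene start, and ran to the commonest 3' end. No such read was seen in SNR17B, where a count of 0 allows up to 3.

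**Figure D2:**
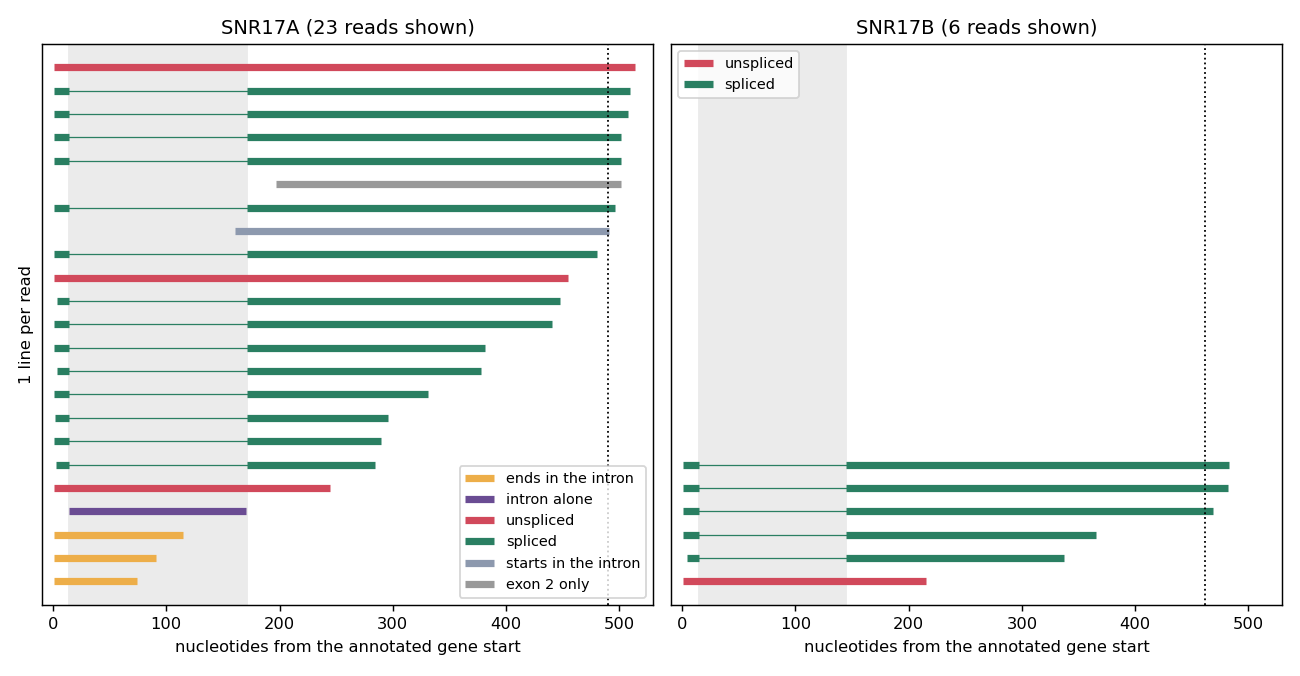
Reads of SNR17A (left, 23 reads) and SNR17B (right, 6 reads) that kept intron sequence, ended more than 5 nt beyond the commonest 3' end, or were spliced and ended more than 5 nt before it, 1 line per read against nt from the annotated gene start. Thick lines are aligned blocks, thin lines the removed intron, the shading is the intron and the dotted line the annotated gene end. The reads that hold both exon 1 and intron sequence all begin at nt 1, and the reads that run past the gene end are mostly spliced.

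The 3' ends gathered at a single base in both copies. The commonest 3' end was the annotated gene end for SNR17A and for SNR17B, and 340 of 433 (78.5%) and 106 of 146 (72.6%) reads stopped exactly there. Within 1 nt of it ended 84.8% of SNR17A reads (81.1 to 87.8) and 76.0% of SNR17B reads (68.5 to 82.2). The difference of 8.73 points (1.51 to 16.9) had a Fisher's exact p of 0.0227 and an adjusted p of 0.0529, and so did not pass the threshold of 0.05. It was 2.08 points in the earlier movies (Fisher's exact test, adjusted p = 0.975) and 13.8 points in the later one (Fisher's exact test, adjusted p = 0.0222). With identical alignments counted once its direction turned, to 46.4% against 60.8%.

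SNR17B ended more often 2 nt beyond the common base. This 3' end was found in 16 of 146 SNR17B reads (10.96%, 6.86 to 17.1; 10 distinct alignments) and in 9 of 433 SNR17A reads (2.08%, 1.10 to 3.90; 5 distinct alignments). The intervals do not overlap. They do overlap in the earlier movies (9.52%, 4.44 to 19.3, against 1.92%, 0.75 to 4.84) and stand apart in the later one (12.05%, 6.68 to 20.8, against 2.22%, 0.95 to 5.10), and with identical alignments counted once they overlap (13.5%, 7.51 to 23.1, against 4.55%, 1.96 to 10.2). The position was singled out after its values were seen, so no test was made.

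In both copies spliced reads ended less often at the common base than reads of exon 2 alone. In SNR17A 98 of 129 spliced reads (76.0%) and 268 of 296 exon 2-only reads (90.5%) ended within 1 nt of it. The difference of -14.6 points (-23.1 to -6.96) passed Fisher's exact test (p = 0.000121, adjusted p = 0.000825). In SNR17B it was 19 of 36 (52.8%) against 92 of 109 (84.4%), a difference of -31.6 points (-48.4 to -14.4; Fisher's exact test, p = 0.000236, adjusted p = 0.000825). The spliced SNR17B reads that lay elsewhere were mostly at the base 2 nt beyond, which held 11 of 36 spliced reads (30.6%, 18.0 to 46.9) and 5 of 109 exon 2-only reads (4.59%, 1.98 to 10.3). These intervals do not overlap, but they do in the earlier movies (2 of 12 and 4 of 51 reads) and with identical alignments counted once (25.0%, 11.2 to 46.9, against 9.43%, 4.10 to 20.3). Both calls were lost when ends within 3 nt were accepted, with differences of -7.34 points (Fisher's exact test, adjusted p = 0.0937) in SNR17A and -10.2 points (adjusted p = 0.310) in SNR17B, and when identical alignments were counted once (adjusted p = 0.164 and 0.246). The SNR17A difference was -15.1 points in the earlier movies (Fisher's exact test, adjusted p = 0.0329) and -14.1 in the later one (adjusted p = 0.0222). The SNR17B difference was -9.31 points in the earlier movies (Fisher's exact test, adjusted p = 0.744) and -42.8 in the later one (adjusted p = 0.00171).

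**Figure D3:**
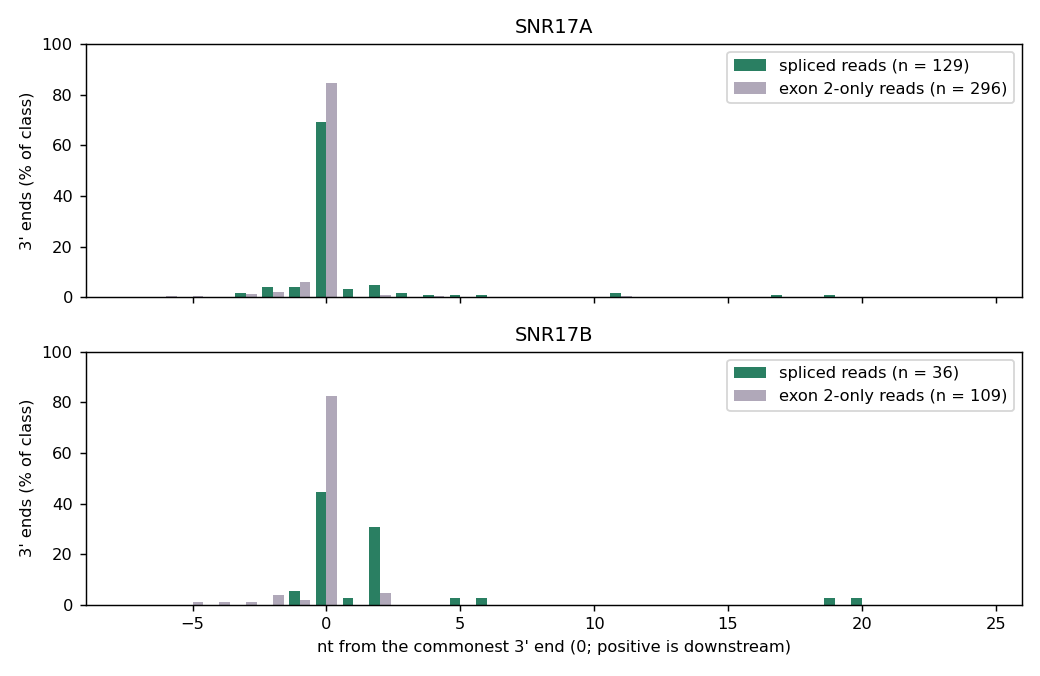
Share of reads (percent of each class) by the distance in nt of their 3' end from the commonest 3' end, for spliced and exon 2-only reads of SNR17A (top) and SNR17B (bottom); ends farther than 8 nt before the common base are not drawn but count in the totals. The bars at 0 are lower for spliced reads, and in SNR17B 30.6% of spliced reads stand at 2 nt beyond.

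Molecules that ran on past the gene end were few and mostly already spliced. At least 10 nt past the common base ended 6 SNR17A reads (1.39%, 0.64 to 2.99) and 2 SNR17B reads (1.37%, 0.38 to 4.86). The copies differed by 0.02 points (-3.55 to 1.90; Fisher's exact test, adjusted p = 1). The SNR17A ends lay 11 nt past the common base in 3 reads and 17, 19 and 23 nt past it in 1 read each, and the SNR17B ends lay 19 and 20 nt past it. Counted from more than 5 nt past, 10 reads of both copies were extended, 9 of them began exactly at the gene start, and 8 of the 9 that were informative had lost the intron. The exception was the unspliced SNR17A read that ended 23 nt past, which was the farthest end of all.

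Reads that stopped before the mature end were in mixed states. More than 5 nt before the common base ended 27 SNR17A reads (6.24%, 4.32 to 8.92) and 8 SNR17B reads (5.48%, 2.80 to 10.4). Of the SNR17A reads 9 were spliced, 2 were unspliced, 12 lay in exon 2 alone, and 4 ended within the intron. Of the SNR17B reads 2 were spliced, 1 was unspliced and 5 lay in exon 2 alone. Among the informative ones, which leave out the reads that ended in the intron, 9 of 11 and 2 of 3 had lost it. The spliced read with its 3' end nearest to the intron ended 113 nt past the 3' splice site in SNR17A and 193 nt past it in SNR17B. The unspliced reads ended at 73, 283 and 342 nt in SNR17A and at 71 nt in SNR17B, so they lay on both sides of these spliced ends in SNR17A. Among informative reads ending within 5 nt of the common base, 115 of 115 in SNR17A and 31 of 31 in SNR17B were spliced. A further 283 and 104 reads with such ends lay in exon 2 alone, and 1 SNR17A read with such an end began inside the intron.

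Over both copies, 146 of 146 informative reads with the mature 3' end were spliced (97.4 to 100). Of the informative reads that ended before or beyond it, 19 of 23 were spliced (82.6%, 62.9 to 93.02). These intervals do not overlap. Each of the 4 unspliced reads thus had a 3' end that was not the mature one. The SNR17A read that began inside the intron was not informative, but it held intron sequence and had the mature end. With identical alignments counted once the shares were 38 of 38 (90.8 to 100) and 18 of 22 (61.5 to 92.7), whose intervals overlap. They also overlap in the earlier movies, with 69 of 69 (94.7 to 100) and 10 of 11 (62.3 to 98.4), and stand apart in the later one, with 77 of 77 (95.2 to 100) and 9 of 12 (46.8 to 91.1). The classes of 3' ends were set after seeing the data, and no test was made. From gene start to gene end the unspliced RNAs measure 490 nt (SNR17A) and 462 nt (SNR17B), and the spliced ones 333 nt and 332 nt. Whether read length shaped the contrast was not tested. The reads with the mature end were 92.2% of all 579 (89.8 to 94.1), and whether they were nascent or finished U3 cannot be told from the files.

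The 5' ends of the reads were spread over many positions. The commonest start was nt 1 in both copies, with 64 of 433 SNR17A reads (14.8%) and 20 of 146 SNR17B reads (13.7%). Within 1 nt of the annotated start began 16.6% of SNR17A reads (13.4 to 20.4) and 15.1% of SNR17B reads (10.2 to 21.8), which differed by 1.56 points (-5.86 to 7.76; Fisher's exact test, adjusted p = 0.979). The SNR17B share is again taken over all 146 reads, with the 41 that began past nt 43, where no SNR17A read began. A second group of starts lay at nt 3 and 4, with 48 of 129 spliced SNR17A reads (37.2%) and 8 of 36 spliced SNR17B reads (22.2%). A few spliced reads began upstream of the annotated start, 4 in SNR17A, the farthest by 13 nt, and 3 in SNR17B, the farthest by 57 nt.

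In exon 2 the copies shared their commonest start and several others. The commonest was nt 31, with 51 SNR17A and 13 SNR17B reads. Its neighbour nt 32 had 24 and 8 reads, nt 15, the first base of exon 2, had 34 and 7, and nt 21 had 24 and 6. Of other positions, nt 17 had 29 reads in SNR17A and 4 in SNR17B. At nt 72, past nt 43 where no SNR17A read began, the counts were 0 and 9. Together nt 31 and 32 held 25.3% of the exon 2-only reads of SNR17A (20.7 to 30.6) and 19.3% of those of SNR17B (13.0 to 27.7). These shares have unlike bases, since 296 of 296 such SNR17A reads began at nt 15 to 43 and 68 of 109 SNR17B reads did. No spliced read of either gene began past nt 6, so the shortest piece of exon 1 in a spliced alignment was 9 nt. Reads with a shorter piece of exon 1 were not seen, and whether some of the reads that start at nt 15 carried one was not tested.

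The reads placed on each copy differed in how far into exon 2 they began. No SNR17A read began past nt 43 of the spliced RNA (0 of 433, interval 0 to 0.879%). In SNR17B 41 of 146 reads (28.1%, 21.4 to 35.9) did, up to nt 72, where 9 reads began. The share of these starts in SNR17B was 30.2% (20.2 to 42.4) in the earlier movies, 26.5% (18.2 to 36.9) in the later one and 31.1% (21.7 to 42.3) with identical alignments counted once. The border at nt 43 was read off the data, so no test was made. Which bases separate the copies was not checked. Whether the difference reflects where a read can be placed on a single copy was not tested.

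**Figure D4:**
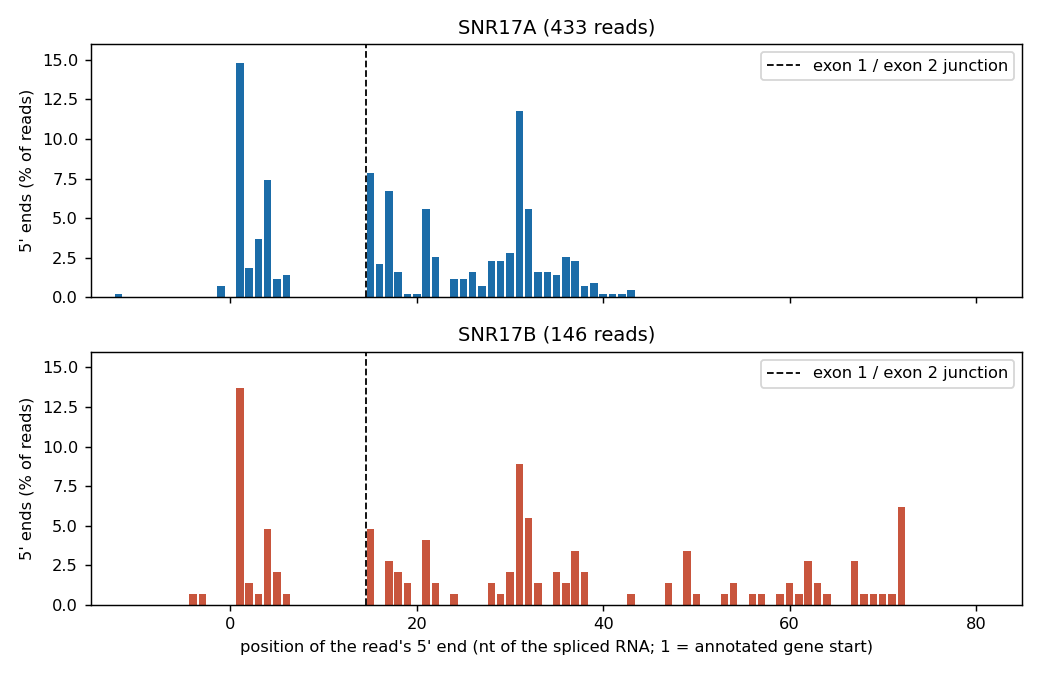
5' ends of SNR17A reads (top) and SNR17B reads (bottom), in percent of the gene's reads, against the position in the spliced RNA in nt; the dashed line is the exon junction, and starts inside the intron or farther upstream than the axis are not drawn. Both copies peak at nt 1 and at nt 31. Among the reads as placed, starts past nt 43 are present in SNR17B (28.1%) and absent from SNR17A.

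Neither U3 gene had reads of its 3' part alone. Past 25% of the length of the spliced RNA began 0% of the reads of SNR17A and of SNR17B, while in the 73 other snoRNAs with at least 50 reads this share had a median of 7.28% and ranged from 0.61% to 63.4%. In the snoRNAs nearest in length it was 32.9% in SNR42 (351 nt, 173 reads), 10.01% in SNR83 (306 nt, 1409 reads) and 63.4% in SNR37 (386 nt, 1551 reads). Whether such reads of U3 were set aside because they match both copies was not tested.

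At the 3' end the U3 genes were among the less uniform snoRNAs. The share within 1 nt of the commonest 3' end had a median of 93.6% over the other 73 and was below that of SNR17A in 5 of them and below that of SNR17B in 1. It was 91.9% in SNR42, 91.2% in SNR83 and 89.8% in SNR37. The share of reads ending more than 5 nt before the common base (6.24% and 5.48%) was higher than in 69 of the 73 others (median 1.49%). The snoRNAs nearest in length had like values, with 7.45% in SNR83, 5.35% in SNR37 and 4.62% in SNR42. The share at least 10 nt beyond it (1.39% and 1.37%) was higher than in 62 and 61 of them (median 0.34%). It rests on 6 and 2 reads (0.64 to 2.99 and 0.38 to 4.86), so these ranks are uncertain. In the snoRNAs nearest in length it was 1.16% in SNR42, 0.84% in SNR37 and 0.07% in SNR83. The share within 1 nt of the commonest 5' end was 16.6% and 15.1% in the U3 genes, beside a median of 72.9% over the others. It was 72.5% in SNR83, 10.8% in SNR37 and 8.67% in SNR42.

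By the sum of the differences in the shares at the commonest 3' and 5' ends, measured over this 1 pool, the snoRNA most like SNR17A was SNR82, with 87.9% of reads at the commonest 3' end and 16.6% at the commonest 5' end (290 reads, sum 3.25 points). In the starts past 25% of the length, which the sum does not use, SNR82 differed, with 28.97% of its reads against 0%. It was followed by SNR4 with 90.2% and 19.6% (388 reads, 8.41 points) and SNR55 with 88.5% and 11.5% (122 reads, 8.92 points).

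The mRNAs of proteins that bind or process U3 had from 0 to 4 reads per gene. Of 5 U3 particle proteins 3 had reads: SNU13, whose product binds the box C/D core, had 3, and NOP56 and NOP58, which encode the paired core proteins, had 2 each. Of 8 proteins of the U3-containing processome 2 had reads, DIP2 with 4 and MPP10 with 1. Of 11 factors of U3 precursor processing only LSM6, a subunit of the Lsm ring, had a read (1), and RNT1, LHP1 and TGS1 had 0, which allows up to 3 each. Over all protein-coding genes, hosts of intronic snoRNAs included, 30.8% of 6002 had at least 1 read, and with so few reads per list nothing is read from the difference.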

How the data were processed

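Long-read cDNA sequencing of nascent RNA was used for 2 S. cerevisiae replicates that the authors deposited as 1 file of genome alignments (1 line per alignment, with start, end, strand and blocks; no header). The submitters' processing notes name sacCer3 and cutadapt 1.8; for the aligner the labels and notes give no name. The deposited score field held 40 throughout and so did not tell alignments apart. Whether alignments with other scores were removed before deposit was not tested. Gene spans came from the RefSeq R64 gene table (sacCer3 is the same assembly) and the intron ends from the commonest alignment gap of each gene; strands from the locus tags.

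Reads were assigned by at least 1 aligned base in the gene on its strand. A spliced read had a gap whose borders lay at most 3 nt from the intron's, and an unspliced read had 1 block across the intron. Shares were compared by two-sided Fisher's exact tests (SciPy 1.17.1, Python 3.11.15) with Benjamini-Hochberg adjustment over 7 tests; differences have Newcombe intervals. Read calls were tested on simulated data. Comparison snoRNAs were the 3 nearest in length to spliced SNR17A and the 3 nearest in the 2 end shares, among those with at least 50 reads. The genes, lists and tests were chosen with earlier results of these data known. Alternatives counted identical alignments once, split the movies, and changed windows, overhangs and assignment. Depth was 101128 alignments.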

Additional observations from a re-analysis of the deposited data

How the results depend on the processing

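Of 57 values recomputed under 13 alternatives, 42 kept their direction and their side of the threshold, or for the share of SNR17A reads stayed within its interval. Signed values are differences in points with two-sided Fisher's exact tests. With identical alignments counted once the difference in percent spliced was -2.93 and that at the commonest 3' end -14.4, both turned, spliced minus exon 2-only became -24.2 (SNR17A) and -22.9 (SNR17B) and lost the call, and SNR17A held 59.8% of the reads. This count also merges different molecules that share both mature ends. In the earlier movies the difference in percent spliced turned to -1.47 and spliced minus exon 2-only in SNR17B was -9.31, no longer called. In the later movie the difference at the commonest 3' end passed the threshold (13.8), while those at the gene start (-5.63), in extended reads (-1.08) and in informative reads (-1.68) turned. A window of 3 nt ended the calls of spliced against exon 2-only reads (-7.34 and -10.2). Extension by at least 5 or 20 nt turned the difference in extended reads to -0.89 and -0.45. None of the turned differences had passed the threshold, and the cause was not tested. No paired analysis was possible because the file does not tell the replicates apart, and for the same reason none could be left out. Few informative SNR17B reads (37) limit every comparison of splicing.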
